A study of Mus musculus with 19 samples.

Results

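Potassium channel genes were followed in the striatum of mice that carry 1 mutant huntingtin allele of different lengths. All genes were taken whose mouse symbol is Kcn followed by a letter and a digit, without pseudogenes and antisense genes, and with at least 10 reads in at least 4 of the 19 mice. Of 81 such genes, 71 met the minimum, out of 54232 genes counted, and all 71 were among the 18521 genes tested. The 10 genes below the minimum were Kcna7, Kcna10, Kcne1, Kcne3, Kcnj1, Kcnj15, Kcnk15, Kcnk16, Kcnk18 and Kcnv2.

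Bulk RNA sequencing was done on the whole striatum of 6-month-old mice on the C57/BL/6 background, with 7 wild-type (WT) mice and 4 mice of each of 3 heterozygous knock-in (KI) genotypes. KI-FL mice carry HD140Q, an expanded polyglutamine tract in the mouse Htt gene, and express full-length mutant HTT. KI-96 and KI-571 mice descend from HD140Q mice whose mutant allele was truncated by CRISPR/Cas9 in exon 2 or exon 13, so that it encodes as many of the first amino acids as the name of the genotype gives, together with the expanded tract. Edited males had been bred to WT females, every KI mouse keeps 1 normal Htt allele, and the mutant protein is made wherever Htt is active rather than in 1 cell type.

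Potassium channels set the resting potential of a cell and end its action potentials. Voltage-gated channels are built from pore subunits of one family, calcium- and sodium-activated channels link the current to ions that enter the cell, inward rectifiers and two-pore channels hold the membrane near rest, and MinK-related and silent subunits change how a pore gates without forming a channel alone. In the striatum, projection neurons are kept silent at rest by Kir2 inward rectifiers and are delayed in firing by Kv1 and Kv4 currents. Fast-spiking interneurons use Kv3 channels to fire at high rates, and astrocytes take up potassium through inward rectifiers. Loss of the astrocytic inward rectifier is a known feature of several Huntington's disease mouse models.

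The mice had 12669809 to 26388542 reads on genes (median 18202412), of which the 71 potassium channel genes took 0.404% to 0.568% of them. At these depths 3 reads correspond to 0.114 to 0.237 counts per 1000000 counts on genes (CPM). The summed level of 15 projection neuron markers was 9633 to 14689 CPM in WT, 8675 to 13886 CPM in KI-96, 10615 to 13883 CPM in KI-571 and 11396 to 13462 CPM in KI-FL mice, so that the tissue label held in every mouse. Against WT, 7 of 7 oligodendrocyte markers were lower in KI-FL mice with a median log2 fold change of -0.24, and 6 of 8 vessel markers were higher with a median of 0.03. The labels do not give sex. Xist, which is expressed from the inactive X chromosome of female cells, was high in 1 of 7 WT, 4 of 4 KI-96, 0 of 4 KI-571 and 1 of 4 KI-FL mice. Sex and genotype therefore cannot be told apart between KI-96 and KI-571 mice, and they are largely mixed between KI-96 and WT or KI-FL mice. With Xist as a covariate, the share of all tested genes at an unadjusted p under 0.05 (edgeR) went from 7.45% to 1.17% in KI-96 compared to WT. Between KI-96 and KI-FL it went from 8.9% to 3.32%. Several mice stood apart. In KI-96 mouse 3, 24.2% of reads fell outside genes, compared with 11.1% to 16.0% in all other mice, and in KI-FL mouse 4 only 16384 genes were detected, compared with 23177 to 28700 in the others. WT mouse 3 had the highest sum of cortical neuron markers, 1064 CPM against 35.7 to 451 CPM in the others. Htt itself, counted over both alleles, was at 178 ± 9.80 CPM in WT (SD, n = 7), 186 ± 40.1 CPM in KI-96 (SD, n = 4), 124 ± 15.3 CPM in KI-571 (SD, n = 4) and 158 ± 17.5 CPM in KI-FL mice (SD, n = 4). This count does not separate the mutant from the normal allele.

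In WT striatum the 71 genes spanned a wide range of levels. Per kilobase of exon their median was 4.99 CPM, compared with 3.47 CPM over all tested genes. Kcnj4, which encodes the Kir2.3 inward rectifier, was highest at 93.7 ± 10.1 CPM per kilobase (SD, n = 7), and its lowest WT mouse was above the highest WT mouse of every other gene. It was followed by Kcnj10, encoding the astrocytic Kir4.1, at 45.9 ± 6.89 CPM per kilobase (SD, n = 7). Among the genes behind these were Kcnd2 (Kv4.2) at 36.4 ± 3.16, Kcnk1 (the 2-pore channel TWIK-1) at 34.6 ± 5.92, Kcnt1 (the sodium-activated Slack channel) at 33.0 ± 4.02 and Kcnh3 (of the ether-a-go-go or EAG family) at 31.7 ± 6.07 CPM per kilobase (SD, n = 7 each). The means of these 4 genes lay within the spread between WT mice of their neighbours in that order. Kcna1 (Kv1.1) and Kcnc1 (Kv3.1) were the highest genes of their families, at 24.5 ± 4.16 and 23.3 ± 3.03 CPM per kilobase (SD, n = 7 each), and they did not differ beyond this spread either. By class, the 13 inward rectifiers held 26.1% of the summed level per kilobase, the 6 Kv1 genes 12.1%, the 11 two-pore channel genes 10.3%, the 5 Kv7 genes 9.48% and the 4 Kv3 genes 7.62%. The 9 silent subunits held 6.81%, with Kcnf1 the highest of them at 11.8 ± 1.99 CPM per kilobase (SD, n = 7). The 3 MinK-related genes held 0.85%, with Kcne1l leading at 5.44 ± 1.59 CPM per kilobase (SD, n = 7), and the 4 small- and intermediate-conductance calcium-activated genes held 1.79%, with Kcnn3 (SK3) leading at 6.59 ± 1.60 CPM per kilobase (SD, n = 7).

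To ask how the length of mutant HTT relates to channel expression, each KI genotype was compared with WT. In KI-FL mice 1 gene rose and 1 gene fell by the quasi-likelihood test of edgeR, with p-values adjusted by the Benjamini-Hochberg method over all tested genes at a threshold of 0.05. Kcng1, which encodes the silent subunit Kv6.1, rose, and Kcnj16, which encodes the inward rectifier Kir5.1, fell. These are 2 of 71, with 0.194% of all tested genes past the same threshold. In KI-96 mice 0 of 71 passed (0.027% of all tested genes) and in KI-571 mice 0 of 71 passed (0.0324% of all tested genes). The same 2 genes passed in the joint test for any difference among the 4 genotypes (0.14% of all tested genes).

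At an unadjusted p under 0.05, more channel genes differed in KI-FL than in the truncated genotypes, and so did more of all tested genes. The shares of all tested genes were 16.7% in KI-FL, 7.72% in KI-571 and 7.45% in KI-96 mice. In KI-FL mice 7 of 71 were higher and 14 of 71 lower than WT, compared with 7.89% and 8.84% of all tested genes. The larger number on the lower side was not kept under every alternative. With 1 surrogate variable 9 were higher and 8 lower, with 11.9% of all tested genes differing in either direction. Without KI-FL mouse 4, 8 were higher and 9 lower, and the share of all tested genes is not given here. In KI-571 mice 5 were higher and 7 lower (3.89% and 3.83% of all tested genes). In KI-96 mice 6 were higher and 1 was lower (4.36% and 3.09% of all tested genes). DESeq2 placed 6 channel genes past the adjusted threshold in KI-FL, 3 in KI-571 and 1 in KI-96 mice. The share of all tested genes past it by DESeq2 is not given here, so these counts were not set against the other genes. The joint test gave 19 of 71 at an unadjusted p under 0.05, compared with 11.7% of all tested genes. The comparisons with WT share the 7 WT mice, and the labels do not say whether the samples of a genotype came from separate litters, so the p-values measure the spread between these mice.

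A stricter description asks whether every KI mouse lay outside the range of the WT mice. In KI-FL mice Kcng1 was above all WT mice (2.9% of all tested genes were), and 6 genes were below all of them (2.38% of all tested genes), among them Kcnj10, Kcnj16, Kcnk7, Kcns1 and Kcnt1. In KI-571 mice 1 gene, Kcne4, was above (0.88% of all tested genes) and 2, Kcnj10 and Kcnj16, were below (0.67%). In KI-96 mice 2 genes, Kcng1 and Kcnj12, were above (0.599%) and 0 were below (0.643%). Kcne4 was chosen for naming after its values were seen.

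Over the 71 genes, values above and below WT were near balance in each KI genotype. The median log2 fold change compared to WT was 0.03 in KI-96, -0.04 in KI-571 and -0.02 in KI-FL mice, with 39, 31 and 34 of 71 genes above 0. The median over all tested genes was within 0.05 of 0 in each of these comparisons. By class, the 4 Kv3 genes had medians of -0.39 in KI-571 and -0.56 in KI-FL mice and of -0.02 in KI-96 mice. The 11 two-pore genes had a median of -0.41 in KI-FL mice with 3 of 11 higher. Of these 11, Kcnk5, Kcnk7 and Kcnk12 had 0 reads in KI-FL mouse 4, the mouse with the fewest genes detected. WT mouse 3, with the highest cortical marker sum, was the highest WT mouse for Kcnk4, Kcnk9 and Kcnk12, among others. Kcnk4, Kcnk5, Kcnk9 and Kcnk12 were named after their values were seen. The 6 Kv1 genes were all higher in KI-96 mice with a median of 0.18, and 0 of 6 had an unadjusted p under 0.05. Other voltage-gated classes were also higher in KI-96 mice, with 2 of 2 Kv2 (median 0.34), 3 of 3 Kv4 (0.22) and 4 of 5 Kv7 genes (0.25). In these mice 9 of 13 inward rectifier genes, 7 of 11 two-pore genes and all 3 MinK-related genes were lower.

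**Figure D1:**
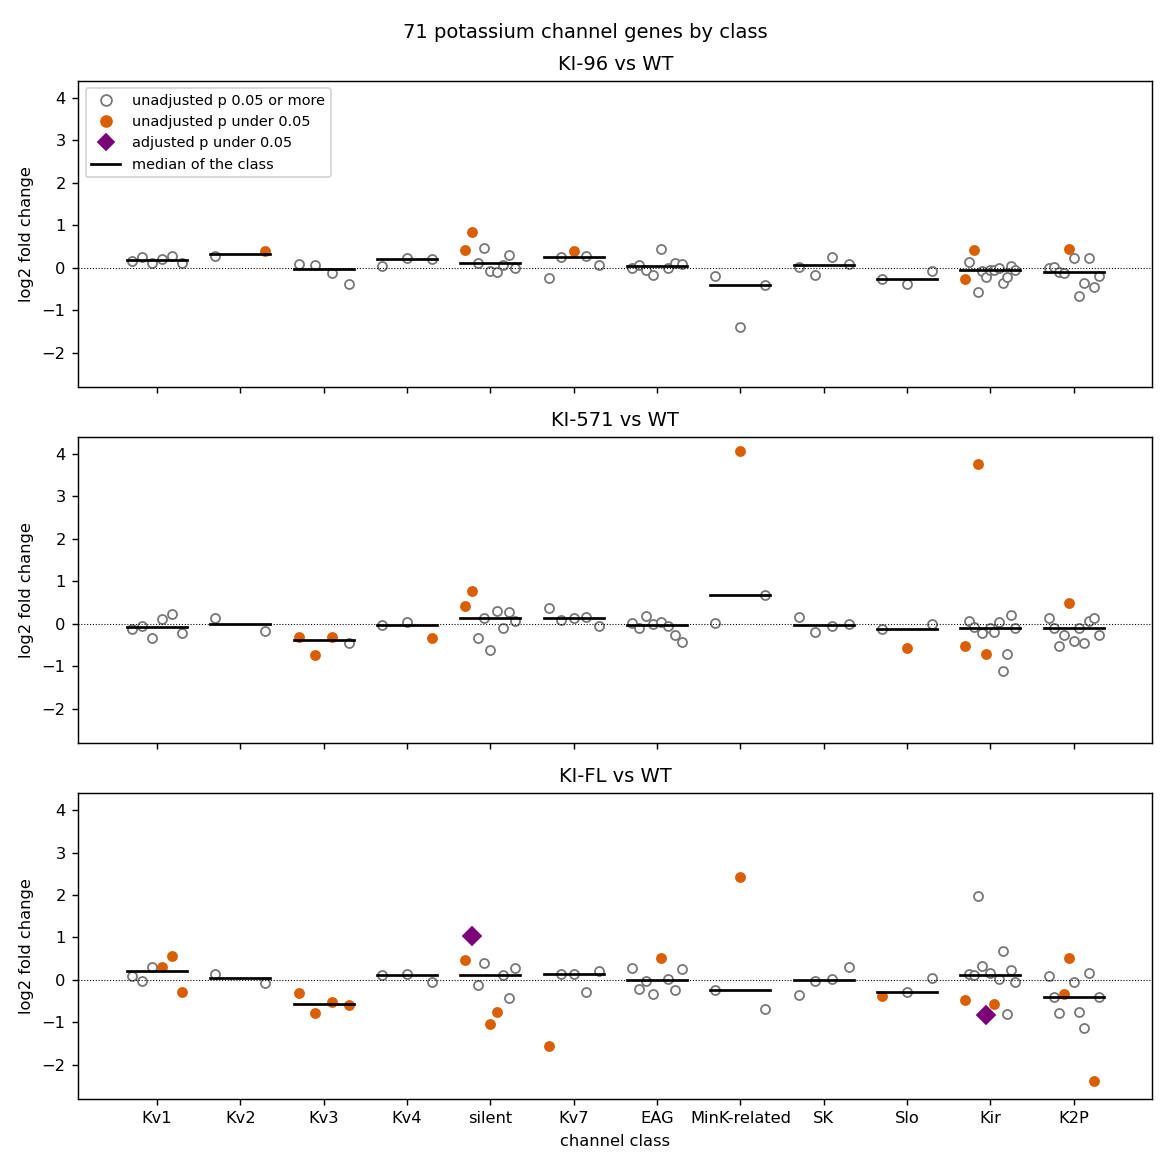
Log2 fold change of each of the 71 potassium channel genes in KI-96, then KI-571, then KI-FL mice compared to WT, one panel per genotype, with genes grouped by channel class. SK stands for calcium-activated, Slo for sodium- and pH-activated, Kir for inward rectifier and K2P for two-pore channels. The short line is the class median, open points have an unadjusted p of 0.05 or more, orange points less, and diamonds passed the adjusted threshold. Only Kcng1 and Kcnj16 in KI-FL mice carry a diamond, and the median line of the Kv3 class sits below 0 in KI-571 and KI-FL mice, at -0.39 and -0.56.

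The gene that rose encodes a silent subunit. These proteins join Kv2 pores, slow or shift their gating and form no channel alone. Kcng1 (ENSMUSG00000074575.4, chr2:168260117-168281736 on the minus strand of GRCm38) was at 21.6 to 40.5 CPM in the 7 WT mice, with a median of 30.6 CPM. In KI-96 mice it was at 65.2, 53.2, 68.4 and 43.9 CPM, in KI-571 mice at 73.0, 58.1, 48.3 and 40.0 CPM, and in KI-FL mice at 77.0, 71.6, 62.9 and 48.8 CPM. Thus 11 of 12 KI mice were above the highest WT mouse and 12 of 12 above the WT median. The log2 fold change was 1.03 ± 0.17 (SE) in KI-FL mice (adjusted p = 0.0279, edgeR), 0.85 ± 0.17 in KI-96 mice (adjusted p = 0.0938, unadjusted p = 5.3e-05) and 0.78 ± 0.17 in KI-571 mice (adjusted p = 0.0959, unadjusted p = 0.00015). In the joint test its adjusted p was 0.0345.

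In KI-96 and in KI-571 mice Kcng1 passed in 2 of 28 alternatives each, with DESeq2 and without the filter on low counts. In KI-FL mice Kcng1 had log2 fold changes that lay between 0.85 and 1.14 under 28 alternatives, and it passed in 18 of them. The adjusted p was 0.0801 with Xist as a covariate, 0.116 with the replicate number as a block, 0.399 with WT mice 1 to 4 only, and 0.0515, 0.0531, 0.0829, 0.0639 and 0.0642 without WT mouse 1, 4, 5, 6 or 7, and 0.0807 and 0.0502 without KI-FL mouse 2 or 3.

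Kcnf1, encoding the silent subunit Kv5.1, was also higher in every KI genotype without passing the adjusted threshold. It lies at chr12:17172100-17176888 on the minus strand of GRCm38 (ENSMUSG00000051726.6). WT mice were at 44.5 to 74.2 CPM with a median of 54.2 CPM, and the next highest WT mouse was at 63.0 CPM. KI-96 mice were at 82.8, 73.4, 73.7 and 73.8 CPM, KI-571 mice at 85.6, 74.4, 77.8 and 64.9 CPM, and KI-FL mice at 76.3, 80.2, 89.6 and 67.3 CPM. All 12 KI mice were above the WT median, and 7 of 12 were above WT mouse 3, the highest. The log2 fold changes were 0.42 ± 0.11 in KI-96, 0.42 ± 0.11 in KI-571 and 0.47 ± 0.11 in KI-FL mice (SE), with adjusted p-values of 0.5, 0.207 and 0.0723 by edgeR's quasi-likelihood test.

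Kcns1, encoding the silent subunit Kv9.1, separated KI-FL from the other genotypes in the opposite direction. It lies at chr2:164163619-164171113 on the minus strand of GRCm38 (ENSMUSG00000040164.3). WT mice were at 8.87 to 15.8 CPM with a median of 10.5 CPM. KI-96 mice were at 10.9, 10.1, 9.38 and 12.4 CPM and KI-571 mice at 15.3, 16.7, 13.3 and 10.8 CPM, within or just above the WT range. KI-FL mice were at 7.37, 6.49, 7.73 and 5.16 CPM, below every other mouse. Compared to WT, the log2 fold change in KI-FL was -0.76 ± 0.18 (SE, adjusted p = 0.0613, edgeR).

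In the direct comparison of KI-571 with KI-FL, Kcns1 was the 1 channel gene of 71 that passed (0.0864% of all tested genes did). It was higher in KI-571 by a log2 fold change of 1.06 ± 0.20 (SE, adjusted p = 0.0258, edgeR), and in the comparison of KI-96 with KI-FL the log2 fold change was 0.68 ± 0.20 (SE, adjusted p = 0.396, edgeR). This call passed in 17 of 27 alternatives. Its adjusted p was 0.181 with 1 surrogate variable, 0.051 with Xist as a covariate, 0.127 with the replicate block, 0.207 with only these 2 genotypes fitted, 0.0858, 0.173 and 0.0672 without KI-571 mouse 1, 2 or 3, and 0.0565, 0.112 and 0.132 without KI-FL mouse 1, 2 or 4.

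Kcnb2, which encodes a Kv2 pore and was named after its values were seen, was higher in KI-96 mice by 0.39 ± 0.17 on the log2 scale (SE, unadjusted p = 0.035), a value that was 0.12 without KI-96 mouse 3. Kcng4, encoding Kv6.4 and also named after its values were seen, was lower in KI-FL mice, with a log2 fold change of -1.03 ± 0.47 (SE, unadjusted p = 0.039, edgeR).

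**Figure D2:**
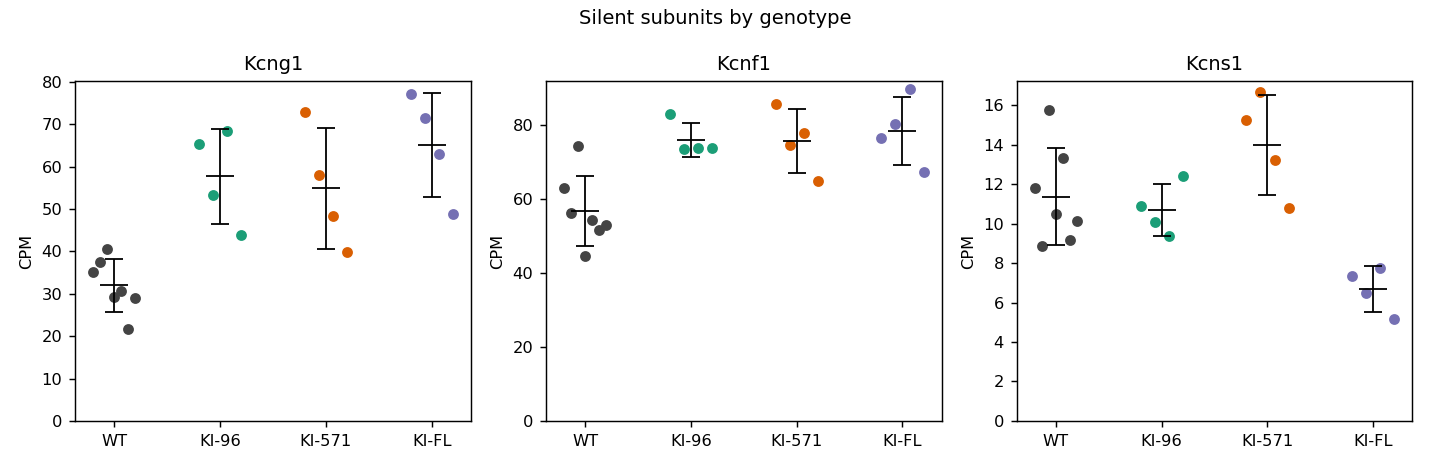
CPM of Kcng1, Kcnf1 and Kcns1 in each mouse by genotype, where points are mice, the bar is the mean and the whiskers are the SD, with 7 WT and 4 mice of each KI genotype. Kcng1 is higher in the KI genotypes than in WT, with 11 of 12 KI mice above 40.5 CPM, the highest WT mouse, while for Kcns1 the 4 KI-FL mice lie below all others.

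Inward rectifiers of astrocytes were lower in KI-571 and KI-FL mice. Kir4.1, encoded by Kcnj10, carries potassium uptake by astrocytes, and Kir5.1, encoded by Kcnj16, assembles with it and makes the joint channel sensitive to pH. The bases before the transcription start of both genes are shown because both were lower in the same genotypes. They are from RefSeq on GRCm38.p6, 250 bases each, 5′ to 3′ on the strand of the gene. Capitals mark a GC box (GGGCGG) or a CCAAT box (CCAAT), searched together with the TATA box (TATAAA) on both strands.
Kcnj10, chr1:172340960-172341209, plus strand: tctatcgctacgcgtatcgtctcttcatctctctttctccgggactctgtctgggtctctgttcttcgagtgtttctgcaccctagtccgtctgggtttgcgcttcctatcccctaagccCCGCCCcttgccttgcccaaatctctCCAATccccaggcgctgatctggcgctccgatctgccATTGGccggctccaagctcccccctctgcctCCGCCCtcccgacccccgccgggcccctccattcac
Kcnj16, chr11:110967783-110968032, plus strand: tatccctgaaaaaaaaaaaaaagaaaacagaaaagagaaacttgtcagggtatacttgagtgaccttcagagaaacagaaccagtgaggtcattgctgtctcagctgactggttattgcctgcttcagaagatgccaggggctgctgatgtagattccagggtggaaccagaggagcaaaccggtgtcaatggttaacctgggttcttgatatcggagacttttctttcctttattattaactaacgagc
The Kcnj10 window had 62.0% G and C and held 2 GC boxes and 2 CCAAT boxes, while the Kcnj16 window, the first of 4 for that gene, had 42.8% G and C and held none of the 3 motifs. Of 32851 windows of this length, 32.7% held a GC box, 33.8% a CCAAT box and 12.4% a TATA box. Of the 71 channel genes 49 had a window.

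Kcnj16 (ENSMUSG00000051497.15, chr11:110968033-111027968 on the plus strand of GRCm38) was at 12.2 to 17.3 CPM in WT mice, with a median of 14.4 CPM. It was at 14.9, 9.68, 11.7 and 14.0 CPM in KI-96, at 10.1, 6.67, 9.48 and 9.72 CPM in KI-571, and at 9.29, 9.10, 7.23 and 7.31 CPM in KI-FL mice. All KI-571 and KI-FL mice were below the lowest WT mouse, and KI-96 mice lay on both sides of it. Kcnj16 fell in KI-FL mice, with a log2 fold change of -0.83 ± 0.16 (SE, adjusted p = 0.0435, edgeR). For KI-571 it was -0.70 ± 0.16 (SE, adjusted p = 0.1, unadjusted p = 0.00022, edgeR), and in KI-96 mice -0.22 ± 0.15 (SE, unadjusted p = 0.17). In the joint test the adjusted p was 0.0482.

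In KI-FL mice Kcnj16 had log2 fold changes that lay between -0.91 and -0.78 under 28 alternatives, and it passed in 14 of them. The adjusted p was 0.11 with 1 surrogate variable, 0.0822 with Xist, 0.32 with the replicate block, 0.399 with WT mice 1 to 4 only, 0.0538, 0.0663, 0.0829, 0.0917 and 0.0725 without WT mouse 1, 4, 5, 6 or 7, 0.0501 without KI-96 mouse 1, 0.0558 without KI-571 mouse 3, and 0.0807, 0.0758 and 0.1 without KI-FL mouse 2, 3 or 4.

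Kcnj10 (ENSMUSG00000044708.5, chr1:172341210-172374085 on the plus strand of GRCm38) is the more abundant of the pair. WT mice were at 211 to 318 CPM with a median of 241 CPM. KI-96 mice were at 210, 208, 181 and 233 CPM, KI-571 mice at 189, 166, 186 and 154 CPM, and KI-FL mice at 199, 158, 162 and 199 CPM. In all, 11 of 12 KI mice were below the lowest WT mouse, the exception being KI-96 mouse 4. Its log2 fold change was -0.51 ± 0.11 in KI-571 (SE, adjusted p = 0.1, edgeR) and -0.47 ± 0.11 in KI-FL mice (SE, adjusted p = 0.0744, edgeR). DESeq2 placed both past the threshold, with adjusted p-values of 0.00664 and 0.00585. For KI-96 it was -0.25 ± 0.11 (SE, unadjusted p = 0.035), and with Xist as a covariate it was -0.04.

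Other astrocyte genes were partly lower as well. The summed level of 8 astrocyte markers was 3296 to 4069 CPM in WT, 3245 to 4030 CPM in KI-96, 3503 to 4046 CPM in KI-571 and 3053 to 3477 CPM in KI-FL mice. In KI-FL mice 7 of 8 were lower, with a median log2 fold change of -0.22, and Gfap (-0.51), Aqp4 (-0.49) and Gja1 (-0.37) were so at an unadjusted p under 0.05. In KI-571 mice 4 of 8 were lower, with a median of -0.05, and Aqp4 (-0.29) was so at an unadjusted p under 0.05. The part of the astrocyte content in the values of Kcnj10 and Kcnj16 was not tested. In bulk tissue, fewer cells of a type and less RNA per cell cannot be told apart.

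**Figure D3:**
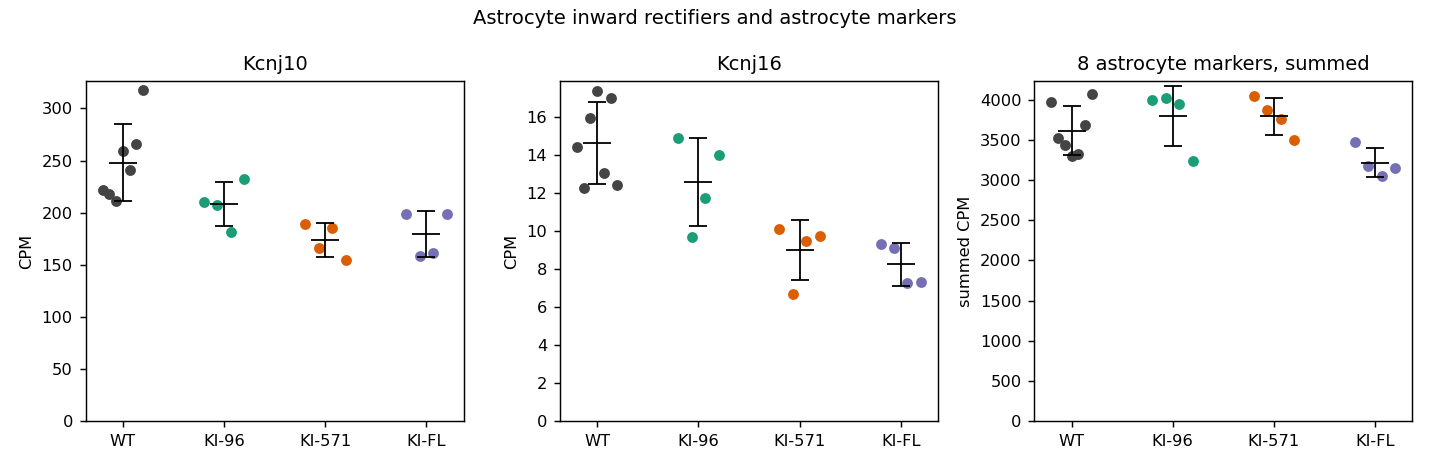
CPM of Kcnj10 and Kcnj16 and the summed CPM of 8 astrocyte markers in each mouse by genotype, where points are mice, the bar is the mean and the whiskers are the SD, with 7 WT and 4 mice of each KI genotype. All KI-571 and KI-FL mice lie below the lowest WT mouse for both channel genes. For the marker sum, KI-FL mice are at 3477, 3181, 3053 and 3156 CPM, with the lowest WT mouse at 3296 CPM. The KI-96 and KI-571 sums overlap with those of WT.

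The genes that neighbour this pair and Kcnj4 were closer to WT. Kcnj9 (Kir3.3), which lies beside Kcnj10 and was named after its values were seen, had log2 fold changes of -0.04, -0.10 and -0.05 in KI-96, then KI-571, then KI-FL mice. Kcnj2 (Kir2.1), which lies beside Kcnj16 and carries the resting current of projection neurons, was at 39.1 to 67.2 CPM in WT, with log2 fold changes of -0.04, -0.09 and 0.17. Kcnj4 (Kir2.3), at 166 to 231 CPM in WT, differed by 0.01, 0.04 and 0.02 on the log2 scale, each with an SE of 0.12. Kcnj8, the pericyte channel Kir6.1, differed by 0.04, 0.21 and 0.23.

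Kcnj12 (Kir2.2) was higher in KI-96 mice at an unadjusted p under 0.05 and did not pass after adjustment. WT mice were at 12.2 to 17.0 CPM with a median of 14.8 CPM, and the 4 KI-96 mice at 18.8 to 21.7 CPM, above all WT mice. Its log2 fold change was 0.42 ± 0.16 in KI-96 mice (SE, adjusted p = 0.629, edgeR), -0.08 in KI-571 and 0.11 in KI-FL mice, where 2 of 4 mice were also above all WT mice. Without KI-96 mouse 3 the first value was 0.37 (unadjusted p = 0.053, edgeR), and with Xist as a covariate its unadjusted p was 0.10. Between KI-96 and KI-571 the log2 fold change was 0.49 (unadjusted p = 0.014, edgeR).

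Some rectifier values rested on 1 mouse. Kcnj5 (Kir3.4) was lower in KI-571 than in KI-FL mice, with a log2 fold change of -1.78 ± 0.60 (SE, unadjusted p = 0.0071, edgeR), and without KI-FL mouse 4, which was at 9.46 CPM against 1.06 to 1.72 CPM in the other KI-FL mice, it was -0.54. Kcnj3 (Kir3.1), named after its values were seen, was at 55.7 CPM in WT mouse 3, the highest of the WT mice and the one with the highest cortical marker sum. Its log2 fold change in KI-FL mice was -0.58 ± 0.27 (SE, unadjusted p = 0.041, edgeR) and -0.29 without WT mouse 3. The part of the cortical content in these values was not tested.

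The Kv3 genes encode the fast delayed rectifiers of interneurons and other fast-firing cells. Kcnc1 and Kcnc2 were lower in KI-571 and KI-FL mice at an unadjusted p under 0.05, and neither passed after adjustment. Kcnc1 (Kv3.1) was at 169 to 260 CPM in WT with a median of 222 CPM. It was at 201, 226, 235 and 280 CPM in KI-96, at 163, 175, 219 and 155 CPM in KI-571 and at 165, 191, 207 and 152 CPM in KI-FL mice. The ranges overlapped, and the log2 fold change was 0.10 in KI-96, -0.31 ± 0.12 in KI-571 and -0.30 ± 0.12 in KI-FL mice (SE, unadjusted p = 0.021 and 0.024, edgeR).

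Kcnc2 (Kv3.2), which is typical of fast-spiking interneurons, was at 25.5 to 68.2 CPM in WT with a median of 58.1 CPM. It was at 39.0, 46.1, 53.3 and 91.6 CPM in KI-96, at 16.7, 29.8, 45.5 and 39.4 CPM in KI-571 and at 17.7, 34.4, 48.1 and 26.6 CPM in KI-FL mice. Compared to WT the difference was 0.08 in KI-96, -0.73 ± 0.29 in KI-571 and -0.78 ± 0.29 in KI-FL mice on the log2 scale (SE, unadjusted p = 0.020 and 0.015, edgeR). Kcnc4 (Kv3.4), named after its values were seen, had a log2 fold change of -0.60 ± 0.28 in KI-FL mice (SE, unadjusted p = 0.045, edgeR) and -0.41 without WT mouse 3.

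Leaving out a mouse moved some of the KI-571 and KI-FL values past an unadjusted p of 0.05. For KI-FL the unadjusted p (edgeR) was 0.099 for Kcnc1 without KI-FL mouse 4 and 0.065 for Kcnc2 without KI-FL mouse 1. Without KI-571 mouse 1 the log2 fold changes were -0.27 for Kcnc1 and -0.52 for Kcnc2, with unadjusted p-values of 0.061 and 0.093, and without KI-571 mouse 4 that of Kcnc1 was -0.24 (unadjusted p = 0.082, edgeR). The summed level of 6 interneuron markers was 291 to 437 CPM in WT, 149 to 411 CPM in KI-96, 154 to 361 CPM in KI-571 and 234 to 349 CPM in KI-FL mice, and KI-571 mouse 1 had the lowest of the KI-571 sums. The lowest sum of all mice was that of KI-96 mouse 3, at 149 CPM. In KI-571 mice 6 of 6 markers were lower with a median log2 fold change of -0.29, and in KI-FL mice 4 of 6 were lower with a median of -0.21. In KI-96 mice 4 of 6 were lower with a median of -0.17. The part of the interneuron content in the Kv3 values was not tested. Exons of Kcna6, Kcnj3, Kcnj13 and Kcnk2 overlap another gene, and the strand setting of the counting is not given in the sources used here.

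**Figure D4:**
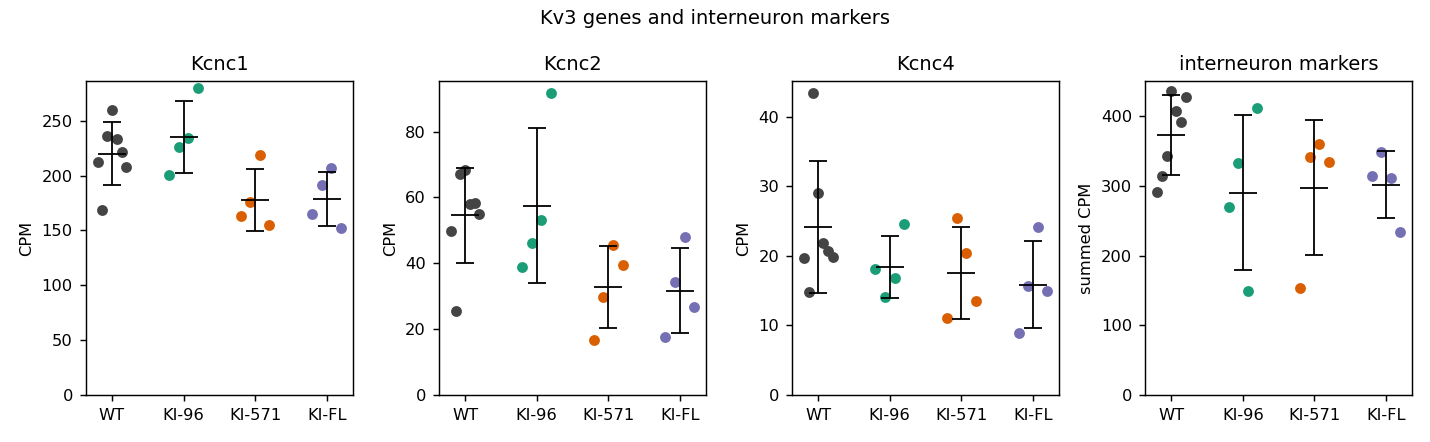
CPM of Kcnc1, Kcnc2 and Kcnc4 and the summed CPM of 6 interneuron markers in each mouse by genotype, where points are mice, the bar is the mean and the whiskers are the SD, with 7 WT and 4 mice of each KI genotype. KI-571 and KI-FL mice lie toward the low side of WT for Kcnc1 and Kcnc2, and KI-571 mouse 1, at 154 CPM, has the lowest marker sum of its genotype. The lowest marker sum of all mice is that of KI-96 mouse 3, at 149 CPM.

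The Kv1 genes, which set the firing threshold and the delay before the first spike, were near WT for Kcna1, the member with the highest level per kilobase. Kcna1 (Kv1.1) was at 95.8 to 149 CPM in WT, with log2 fold changes of 0.16, -0.12 and 0.10 in KI-96, then KI-571, then KI-FL mice. Kcna4 (Kv1.4), a fast-inactivating channel, was at 64.1 to 94.4 CPM in WT, and its log2 fold change was 0.31 ± 0.13 in KI-FL mice (SE, adjusted p = 0.226, edgeR). Kcna6 (Kv1.6) was at 53.4 to 72.9 CPM in WT, with a log2 fold change of -0.28 ± 0.11 in KI-FL mice (SE, unadjusted p = 0.014, edgeR) and 0.12 in KI-96 mice, and the direct comparison of KI-96 with KI-FL gave 0.40 ± 0.12 (SE, adjusted p = 0.406, edgeR).

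Of the Kv4 genes, which carry the A-type current of projection neurons, Kcnd2 (Kv4.2) was at 167 to 212 CPM in WT, and its log2 fold changes were 0.22, 0.04 and 0.14. Kcnd3 (Kv4.3) was at 41.5 to 69.3 CPM in WT with a median of 53.5 CPM, at 54.1, 60.9, 76.1 and 60.2 CPM in KI-96 and at 45.0, 40.8, 42.6 and 44.1 CPM in KI-571 mice. The KI-96 and KI-571 mice did not overlap, and the log2 fold change between them was 0.54 ± 0.16 (SE, adjusted p = 0.464, edgeR). With Xist as a covariate it was 0.31 (unadjusted p = 0.16).

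Kcnq3 (Kv7.3) is a subunit of the M-current, a brake on repeated firing. It was at 233 to 346 CPM in WT and at 380, 342, 532 and 258 CPM in KI-96 mice. Its difference in KI-96 mice was 0.41 ± 0.15 on the log2 scale (SE, adjusted p = 0.623, edgeR). It was 0.19 without KI-96 mouse 3, the library with the large share of reads outside genes, and 0.29 with Xist as a covariate. Of the 8 EAG genes, Kcnh3 was the highest per kilobase and differed from WT by -0.04, 0.18 and -0.02 on the log2 scale.

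The KI genotypes were also compared directly. Between KI-96 and KI-571 mice 52 of 71 genes were higher in KI-96, with a median log2 fold change of 0.11, while the median over all tested genes was within 0.05 of 0. The median was 0.07 without KI-96 mouse 3, the library with 24.2% of reads outside genes and the largest share of reads on channel genes (0.568%), and 0.07 without KI-571 mouse 4. At an unadjusted p under 0.05, 9 of 71 were higher in KI-96 and 2 lower (3.14% and 2.38% of all tested genes), and 0 of 71 passed after adjustment (0.0054% of all tested genes), while DESeq2 placed Kcne2 alone past the threshold. The 9 were Kcna2, Kcna6, Kcnb2, Kcnc1, Kcnc2, Kcnd3, Kcnj12, Kcnj16 and Kcnk3, and the 2 were Kcne2 and Kcnj13. Of these, Kcna2, Kcnb2 and Kcnk3 were chosen for naming after their values were seen. With Xist as a covariate 1 of the 71 genes was left at an unadjusted p under 0.05, compared with 1.55% of all tested genes.

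Between KI-96 and KI-FL mice 44 of 71 were higher in KI-96, with a median log2 fold change of 0.12 against 0.02 over all tested genes. At an unadjusted p under 0.05, 8 of 71 were higher and 1 lower (5.13% and 3.77% of all tested genes), and 0 of 71 passed after adjustment (0% of all tested genes), by DESeq2 also 0. Among the 8 were Kcnj16 (0.61), Kcns1 (0.68), Kcnc1 (0.40) and Kcnc2 (0.86). In the comparison of KI-571 with KI-FL, 30 of 71 were higher in KI-571, with a median of -0.03 against 0.02, and at an unadjusted p under 0.05, 5 were higher and 2 lower (4.67% and 4.23% of all tested genes). Without KI-571 mouse 1 these were 6 higher and 9 lower, and the shares of all tested genes under this alternative are not given here.

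Two-pore, calcium-activated and sodium-activated channels showed values that did not pass. Kcnk2, encoding the mechanically gated channel TREK-1 and named after its values were seen, was at 68.3 to 133 CPM in WT with a median of 95.8 CPM. It was at 151, 145, 171 and 84.3 CPM in KI-96, at 197, 127, 138 and 106 CPM in KI-571 and at 178, 135, 123 and 143 CPM in KI-FL mice, so that 8 of 12 KI mice were above the highest WT mouse. The log2 fold changes were 0.45, 0.49 and 0.52 (unadjusted p = 0.035, 0.022 and 0.016, edgeR), and without KI-96 mouse 3 the first was 0.32. Kcnk1 (TWIK-1) differed from WT by 0.00, 0.14 and 0.10 on the log2 scale.

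The 2-pore genes of microglia also did not pass. Kcnk13 (THIK-1), through which microglia hold their resting potential, was at 16.5 to 24.4 CPM in WT, with log2 fold changes of -0.12, -0.26 and -0.33 ± 0.14 (unadjusted p of the last 0.026, edgeR), while Kcnk6 differed by 0.23, 0.07 and 0.17. The summed level of 6 microglial markers was 247 to 343 CPM in WT and 280 to 394 CPM in KI-FL mice. Kcnk7 was close to the floor, with 6 to 15 reads per WT mouse and 0, 0, 6 and 0 reads in KI-FL mice. Its fitted log2 fold change of -2.38 ± 0.76 (SE, adjusted p = 0.142, edgeR) rests on these few reads.

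Kcnt1 (Slack), which opens with sodium entry during firing, was at 275 to 371 CPM in WT with a median of 290 CPM and at 242, 239, 250 and 230 CPM in KI-FL mice, below all WT mice. Its log2 fold change was -0.38 ± 0.13 (SE, adjusted p = 0.148, edgeR). Kcnn3 (SK3), of the calcium-activated class, differed from WT by 0.26, -0.04 and 0.01 on the log2 scale.

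Among the MinK-related genes, Kcne2 had the largest fitted fold change compared to WT of all 71, and it was high in the mice with the most choroid plexus RNA. Kcne2 and the inward rectifier gene Kcnj13 (Kir7.1) are both typical of the choroid plexus, the secretory tissue that lines the ventricle beside the striatum. Kcne2 was at 0 to 2.03 CPM in WT mice with a median of 0.675 CPM. It was at 1.97, 22.2, 0.274 and 28.5 CPM in KI-571 mice and at 14.5, 0.554, 0.556 and 1.31 CPM in KI-FL mice. Thus KI-571 mice 2 and 4 and KI-FL mouse 1 were high and the rest were at or near the WT range.

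The same 3 mice were the highest for Kcnj13, at 6.19, 9.72 and 4.25 CPM, against at most 1.23 CPM in WT. They were also the highest for the summed level of 7 choroid plexus markers, at 5158, 5402 and 3069 CPM, against 46.2 to 412 CPM in WT and 37.8 to 94.8 CPM in KI-96 mice. Compared to WT, Kcne2 had a log2 fold change of 4.07 ± 0.94 in KI-571 mice (SE, adjusted p = 0.109, edgeR) and 2.42 ± 0.95 in KI-FL mice (SE, unadjusted p = 0.018, edgeR), and the latter was 0.03 without KI-FL mouse 1. For Kcnj13 it was 3.76 ± 1.12 in KI-571 mice (SE, unadjusted p = 0.0029, edgeR). In KI-571 mice 7 of 7 choroid plexus markers were higher at an unadjusted p under 0.05. The part of this tissue in the values of Kcne2 and Kcnj13 was not tested. Kcne1l, the MinK-related gene with the highest level per kilobase, differed from WT by -0.19, 0.02 and -0.23 on the log2 scale.

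**Figure D5:**
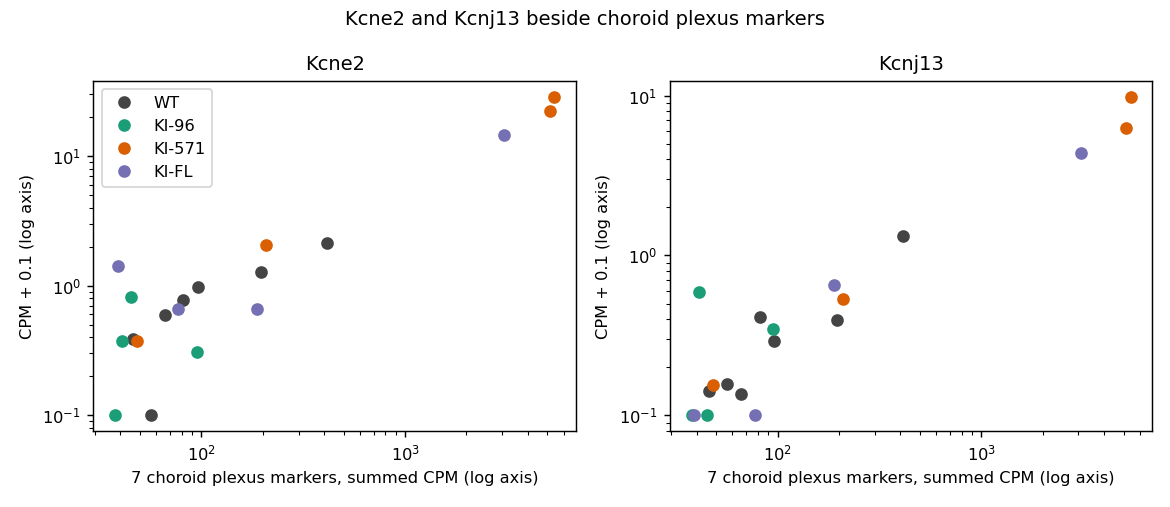
CPM of Kcne2 and Kcnj13 (each with 0.1 added) against the summed CPM of 7 choroid plexus markers, both on log axes, with 1 point per mouse coloured by genotype. The 3 mice with marker sums of 3069 to 5402 CPM, KI-571 mice 2 and 4 and KI-FL mouse 1, are the 3 highest for both channel genes.

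Subunits and partner proteins outside the naming pattern were read from the same fit. Of 30 genes listed, among them the BK channel and its auxiliary subunits, Kvbeta, KChIP and dipeptidyl peptidase-like proteins, HCN channels and proteins that cluster Kv1 channels, 28 were tested and 0 passed in any comparison with WT. Their median log2 fold change was 0.08 in KI-96, -0.13 in KI-571 and -0.03 in KI-FL mice. At an unadjusted p under 0.05, 3 of 28 differed in KI-96 mice (2 higher, 1 lower), 4 of 28 in KI-571 mice (all lower) and 5 of 28 in KI-FL mice (1 higher, 4 lower), compared with 7.45%, 7.72% and 16.7% of all tested genes. Lgi1, which encodes a secreted protein of the Kv1 complex, was higher in KI-96 (0.27) and in KI-FL mice (0.26). Dpp10, an auxiliary subunit of Kv4 channels, was lower in KI-96 (-0.24) and KI-571 mice (-0.41), while Dpp6, another auxiliary subunit of these channels, was higher in KI-96 mice (0.27). Abcc8, the sulfonylurea receptor of ATP-sensitive channels, was lower in KI-571 (-0.32) and KI-FL mice (-0.43). The lowest value was that of Lrrc26, an auxiliary subunit of BK channels, in KI-FL mice (-1.63, unadjusted p = 0.0024, edgeR). These partner genes were chosen for naming after their values were seen.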

How the data were processed

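Striatal RNA of 19 mice (7 WT and 4 of each KI genotype) was sequenced, and genotypes and replicate numbers were taken from the labels. The values deposited are the authors' unnormalized counts of reads for each gene. They had trimmed reads with BBduk, aligned them to GRCm38 with STAR and counted them with HTSeq. Versions and the strand setting are not given in the sources used here. The 5 summary lines, 20.8% to 32.8% of reads per mouse, and 4 columns of no sample were left out. The study fitted sacrifice batch and removed 1 WT outlier. The batch and the name of that mouse are not given in the sources used here, so all 7 WT mice were kept.

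All 19 mice were fitted together in edgeR 4.0.16 (R 4.3.3; TMM, filterByExpr, a coefficient per genotype) by the quasi-likelihood F-test, with Benjamini-Hochberg adjustment over 18521 genes. CPM were computed from the counts with TMM library sizes. The biological coefficient of variation was 0.240. The fit was tested on simulated data. Alternatives used DESeq2 1.42.0, its size factors, no filter, at least 10 reads in every mouse, 1 surrogate variable (sva 3.50.0), Xist, the replicate block, only the genotypes compared, WT mice 1 to 4, and each mouse left out.

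Channel genes and lists were chosen with earlier results of these data known. Named were the genes past the threshold, the 5 smallest p against WT and in the joint test, the 3 smallest between KI genotypes, the highest gene per kilobase of each class, and 17 genes of known cell types. The lists were projection neuron, cortical neuron, interneuron, astrocyte, oligodendrocyte, microglial, vessel and choroid plexus markers. Overlaps of exons were taken from GENCODE mouse release M21. Values of some single genes are not reported here.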

Additional observations from a re-analysis of the deposited data

Results flagged for a closer look

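Of 120 groups of 4 or 7 mice formed by 30 named genes and 4 genotypes, 12 held a mouse far from the others of its genotype by Dixon's test, and chance gives about 1 in 20, or 6. On the log2 CPM scale these were Kcna4 in KI-96 mouse 4 (5.99), Kcna6 in KI-96 mouse 2 (5.88), Kcnc2 in WT mouse 2 (4.68), Kcne1l in KI-571 mouse 3 (3.54), Kcnf1 in KI-96 mouse 1 (6.37), Kcnj16 in KI-571 mouse 2 (2.76), Kcnk13 in KI-96 mouse 3 (3.85) and in KI-571 mouse 3 (4.49), Kcnk7 in KI-571 mouse 4 (-1.42) and in KI-FL mouse 3 (-1.29), Kcnn3 in KI-FL mouse 4 (5.78), and Kcnq3 in KI-571 mouse 1 (8.62).

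In the comparison of KI-571 with KI-FL, Kcns1 differed, with a log2 fold change of 1.06, that is, its difference from WT was not the same in these genotypes.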

How the results depend on the processing

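Of the named genes under all alternatives, 1170 values kept their direction and their side of the threshold, 34 fell below it, 21 passed it and 0 reversed. The count of channel genes past the adjusted threshold in KI-FL compared to WT was 2, with 0.194% of all tested genes. Shares of all tested genes are given in brackets below, except for DESeq2, whose counts were not set against the other genes. It was 1 with 1 surrogate variable (0.0432%), 0 with Xist (0%) and 0 with WT mice 1 to 4 (0%). With only these genotypes fitted it was 4 (1.89%), and with DESeq2 it was 6. In KI-96 compared to WT it went from 0 to 1 without the filter (0.0624%) and 1 with DESeq2. In KI-571 compared to WT it went from 0 to 3 without the filter (0.212%) and 3 with DESeq2. Between KI-96 and KI-571 it went from 0 to 1 without the filter (0.095%) and 1 with DESeq2. Between KI-571 and KI-FL it went from 1 to 0 with 1 surrogate variable (0.0054%), 0 with Xist (0.0756%) and 0 with only these genotypes (0.0654%). In the joint test it went from 2 to 6 without the filter (0.613%) and 1 with 1 surrogate variable (0.0756%). With Xist it was 0 (0.0162%), and with WT mice 1 to 4 it was 0 (0.0276%). At an unadjusted p under 0.05, the count in KI-96 compared to WT went from 7 (7.45%) to 2 with Xist (1.17%). Between KI-96 and KI-FL it went from 9 (8.9%) to 15 without the filter (9.69%). Between KI-571 and KI-FL it went from 7 (8.9%) to 4 with at least 10 reads in every mouse (8.4%). Between KI-96 and KI-571 it went from 11 (5.51%) to 1 with Xist (1.55%). The cause of these changes was not tested.

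With the replicate number as a block, 0 channel genes passed in KI-FL compared to WT (0% of all tested genes). The counts were 0 between KI-571 and KI-FL (0.0486%) and 0 in the joint test (0.0378%). Under this block 4 had an unadjusted p under 0.05 between KI-571 and KI-FL (6.76%). Mice with the same number correlated in their deviations by -0.128 to 0.290 over 24 pairs of groups and numbers, 5 of them over 0.1. These values were not compared with those of mice with different numbers, so whether the numbers pair the mice was not tested.

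With each mouse left out in turn, the adjusted count ranged from 0 to 0 in KI-96, 0 to 1 in KI-571 and 0 to 4 in KI-FL compared to WT, from 0 to 0 between KI-96 and KI-FL, 0 to 1 between KI-571 and KI-FL, and 0 to 3 in the joint test. It was 0 in KI-FL without WT mouse 1, 4, 5, 6 or 7 or KI-FL mouse 2 or 3, and 4 without WT mouse 3 or KI-96 mouse 3. The unadjusted count ranged from 3 to 17 in KI-96, 7 to 15 in KI-571 and 12 to 24 in KI-FL compared to WT, 7 to 14 between KI-96 and KI-FL, 5 to 15 between KI-571 and KI-FL, 9 to 20 between KI-96 and KI-571, and 14 to 22 in the joint test. In KI-96 compared to WT it was 3 without KI-96 mouse 3 and 17 without KI-96 mouse 4. The shares of all tested genes for each mouse left out are not given here, so these counts were not set against the other genes. At 12669809 to 26388542 reads on genes per mouse, Kcnk7 had at most 15 reads in any mouse.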
